A study of Mus musculus with 6 samples.

Results

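A set of 10 nuclear genes whose products copy, transcribe or stabilise the mitochondrial genome and its RNA was followed in RNA-seq libraries of mouse embryonic fibroblasts (MEFs) treated with a mitofusin activator or a mitofusin inhibitor. The genes were chosen by name: Tfam, Polrmt, Tfb1m, Tfb2m, Polg, Polg2, Twnk, Ssbp1, Lrpprc and Slirp, which are 10 of the 55291 genes listed in the count table. Wild-type MEFs received vehicle, MASM7 (1 μM, 6 h) or MFI8 (20 μM, 6 h), and each of the 3 groups held 2 libraries that the study describes as independent biological replicates. MASM7 is a small molecule that activates mitofusins, the outer membrane proteins that fuse mitochondria, and MFI8 is a small molecule that inhibits them. Concentrations and duration were taken from the study's text, which gives no duration for the vehicle, and the labels name neither the mouse strain nor the derivation of the cells. Since the concentrations of the compounds differed, compound and concentration cannot be told apart between MFI8 and MASM7.

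Mitochondrial DNA is a small circular genome, present in many copies per cell, that is replicated and transcribed by a dedicated set of proteins encoded in the nucleus. TFAM packages the genome into nucleoids and, with TFB2M and the RNA polymerase POLRMT, starts transcription, while TFB1M methylates the ribosomal RNA of the small mitochondrial ribosomal subunit. DNA polymerase gamma (catalytic subunit POLG, accessory subunit POLG2), the helicase TWINKLE encoded by Twnk and the single-stranded DNA binding protein SSBP1 form the replication machinery. LRPPRC and SLIRP bind each other and keep mitochondrial mRNAs stable and polyadenylated. In many cells these genes are known targets of the nuclear respiratory factors NRF-1 and GABP.

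The promoters of 7 of the 10 genes held the GABP core, a motif that the choice of the genes had not used. RefSeq promoter windows of 300 bases (250 bases before the transcription start and 50 after, build GRCm38.p6) were searched on both strands for the GABP core CCGGAAG, the SP1 core GGGCGG, the NRF-1 motif and the YY1 motif AAGATGGCG. All 10 genes had a window, and Twnk had a pair of them. The GABP core was found in 7 of the 10 genes, against 8.86% of all 32851 promoters and 17.7% of the 12528 promoters that belonged to genes tested here. The SP1 core was also found in 7 of the 10 genes, against 63.4% of the promoters of tested genes, so its share among them was close to that background. NRF-1 was matched in 1 gene, Polrmt, against 10.2%, and YY1 in 1 gene, Slirp, against 3.01%. Tfb1m, Tfb2m and Lrpprc held no GABP match in these windows. A match is a string of letters and not a measured binding site. The following 30-base stretches are shown because they hold the GABP core nearest to the start of each of the 7 genes, in capitals, as CCGGAAG or as its reverse complement CTTCCGG, read 5′ to 3′ on the strand of the gene.
Tfam: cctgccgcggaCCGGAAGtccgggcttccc
Polrmt: ccctaagagcgCTTCCGGcagtcgcagaac
Polg: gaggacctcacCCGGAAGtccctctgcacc
Polg2: cgggtgacgctCTTCCGGgggcgtggtcta
Twnk: ggagagttttgCTTCCGGagtcaccgcgag
Ssbp1: ggctccgtgcgCCGGAAGcgagccgctggc
Slirp: tctggcaggttCTTCCGGggtcacgactcc

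On GRCm38 these stretches lie at chr10:71238073-71238102 for Tfam (minus strand), chr10:79746606-79746635 for Polrmt (minus), chr7:79466293-79466322 for Polg (minus) and chr11:106779548-106779577 for Polg2 (minus). Those of Twnk, Ssbp1 and Slirp lie on the plus strand at chr19:45006481-45006510, chr6:40471410-40471439 and chr12:87443874-87443903. In the GENCODE vM21 annotation the stretches of Tfam, Polg, Ssbp1 and Slirp touch noncoding bases of an exon, that of Twnk lies in an intron of a longer transcript, and those of Polrmt and Polg2 lie outside the annotated gene. Slirp held 3 matches to the GABP core and Twnk held 2, both in the same one of its windows. The NRF-1 motif in Polrmt is shown in capitals because Polrmt alone among the 10 genes held that motif. A second match overlaps the one shown, which lies at chr10:79746568-79746597 on the minus strand and touches noncoding bases of an exon.
Polrmt: cctgcaggcgGCGCGTGCGCgtgcgcactg

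All 10 genes were measured in every library, and their levels per length spanned a wide range. Levels were compared between genes as TPM, which divides each count by gene length and scales every library to the same total. Lrpprc was the highest, with a mean of 109 TPM over the 6 libraries (106 to 111), followed by Twnk at 75.0 TPM (69.5 to 81.5) and Tfam at 61.4 TPM (58.6 to 67.9). Slirp stood at 49.0 TPM (47.1 to 50.5) and Polrmt at 41.3 TPM (37.2 to 48.4), and these were the only neighbours in the order whose ranges over the 6 libraries overlapped. Polg (32.3 TPM) and Ssbp1 (26.5 TPM) came next, then Tfb2m (13.5 TPM), Tfb1m (8.76 TPM) and Polg2 (5.15 TPM), the accessory subunit of the polymerase. The catalytic subunit Polg was thus 5.38 to 7.54 times as high per length as its accessory subunit Polg2, and Lrpprc was 2.13 to 2.35 times as high as its binding partner Slirp. The lengths behind the TPM values equal all merged exons of each gene in vM21. With the principal transcript as the length, Ssbp1 (14.2 CPM per kb) passed Polg (12.5) and Tfb1m (6.36) passed Tfb2m (4.35), while the other 6 genes kept their ranks. On that length Polg was 2.97 times as high as Polg2 and Lrpprc 3.75 times as high as Slirp, so both ratios of levels depend on the length used. The plot of levels by library shows the order.

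**Figure D1:**
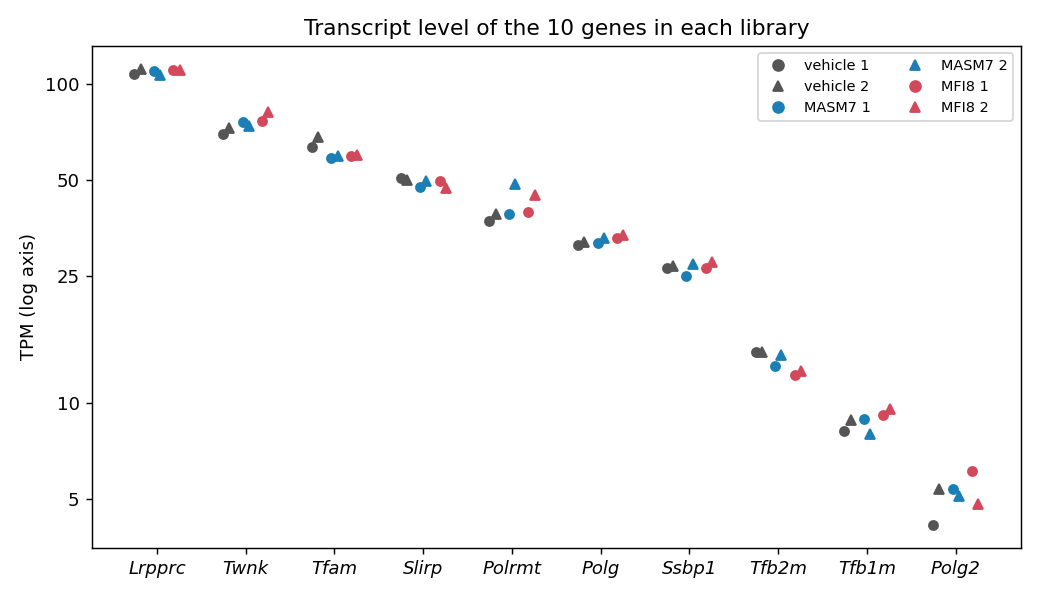
TPM (log axis) of each of the 10 genes in each of the 6 libraries, ordered by mean. Grey, blue and red points are vehicle, MASM7 and MFI8, circles and triangles are replicates 1 and 2, and the genes span 4.14 TPM (Polg2, vehicle 1) to 111 TPM (Lrpprc, vehicle 2).

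The 6 libraries held between 22791792 and 30677751 counts on genes, of which 15905 to 22011 fell on the 10 genes, and the 10 genes together took 697 to 721 CPM, the count scaled to library size. Single-gene counts ran from 117 (Polg2, vehicle 1) to 8059 (Lrpprc, MFI8 2), so counting error weighs most on Polg2 (117 to 197 counts), Tfb1m (191 to 296) and Tfb2m (219 to 344). Summed fibroblast markers (8 genes, among them Col1a1, Vim and Pdgfra) took 7788 to 9891 CPM, while Thy1 had only 6 to 19 counts. Endothelial Kdr, leukocyte Adgre1, erythroid Hbb-bs and neuronal Rbfox3 had 0 counts in all 6 libraries. Summed over 4 genes each, blood cell markers took 3.11 to 4.30 CPM, endothelial markers 0.261 to 0.596 CPM and epithelial markers 0.0986 to 0.304 CPM. The 4 neural markers summed to 25.4 and 26.7 CPM with vehicle and to 32.4 to 35.8 CPM in the treated libraries, nearly all of it Tubb3 (571 to 1018 counts), and their part in the results was not tested. In bulk RNA, fewer cells of one kind and less RNA per cell cannot be told apart.

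Whether a gene's RNA differed between treatments was tested in edgeR (quasi-likelihood F test, p adjusted by Benjamini-Hochberg over 14290 genes). All 10 genes were among the 14290 that the filter on low counts kept. At an adjusted p under 0.05, neither compound gave a call against vehicle among the 10 genes (0 of 10 for each), and over all genes tested the share called was 0% in both comparisons. At an unadjusted p under 0.05, MFI8 gave 2 of the 10 genes, Tfam and Tfb2m, both lower, where 9.86% of all genes tested passed (5.21% higher and 4.65% lower). MASM7 gave 1 of the 10, Tfam, also lower, where 10.2% of all genes passed (5.32% higher and 4.88% lower). DESeq2 called 0 of the 10 genes in either comparison, and 48 and 2 genes of the whole table. An exact two-sided permutation test could not have gone below p = 0.333 with these group sizes. Both comparisons use the same vehicle libraries, so a shared direction between them is not independent.

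Tfam, the packaging and initiation factor, was lower in all 4 treated libraries than in either vehicle library. Its level was 80.2 and 84.7 CPM with vehicle, 74.2 and 75.3 CPM with MASM7, and 73.3 and 73.8 CPM with MFI8. The treated libraries lay within a few CPM of each other and did not overlap with vehicle. The log2 fold change was -0.17 with MFI8 (SE 0.057, 95% interval -0.29 to -0.038, edgeR adjusted p = 0.412), a level 10.8% lower. With MASM7 it was -0.14 (SE 0.056, interval -0.27 to -0.015, adjusted p = 0.477), a level 9.30% lower. Vehicle replicate 2 was the higher of the vehicle libraries. Without it the log2 fold changes were -0.12 with MFI8 and -0.10 with MASM7, and neither was past an unadjusted p of 0.05. Offsets for GC content and transcript length left the MFI8 value at -0.14 and the MASM7 value at -0.085.

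Tfb2m, the transcription factor that melts the mitochondrial promoter together with POLRMT, had the widest spread between group means of the 10 genes. It was measured at 11.5 and 11.4 CPM with vehicle, 10.4 and 11.3 CPM with MASM7, and 9.54 and 9.79 CPM with MFI8. The MFI8 libraries lay below all 4 others, and the MASM7 libraries lay below vehicle, replicate 1 by about 1 CPM and replicate 2 by a far smaller margin. Its log2 fold change was -0.24 with MFI8 (SE 0.11, interval -0.49 to -0.0012, adjusted p = 0.504), which is 15.5% lower, and -0.076 with MASM7 (interval -0.31 to 0.16, adjusted p = 0.816). The MFI8 value was -0.19 (adjusted p = 0.725) after the GC and length offsets, and the MASM7 value was then 0.00023. Its group means on the log2 CPM scale differed by 0.24 at most, at the 69.6th percentile of all genes tested, where the median gene differed by 0.16. The genes closest to the course of Tfb2m over the 6 libraries were Akirin1, Zfp326 and Vegfd, with root mean squared differences of 0.028, 0.041 and 0.043 in log2 CPM.

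Polrmt and Tfb1m completed the transcription and rRNA methylation group. Differences were positive but imprecise for Polrmt with both compounds and for Tfb1m with MFI8, while Tfb1m with MASM7 was near 0. Polrmt was at 49.6 and 51.5 CPM with vehicle, 52.1 and 65.1 CPM with MASM7, and 51.6 and 58.0 CPM with MFI8. MASM7 replicate 2 stood well above the rest, and all treated libraries lay above the vehicle libraries, some by less than 1 CPM. The log2 fold change was 0.21 with MASM7 (interval -0.015 to 0.44, adjusted p = 0.504) and 0.12 with MFI8 (interval -0.11 to 0.35, adjusted p = 0.728). Without MASM7 replicate 2 the MASM7 value was 0.043, and without MASM7 replicate 1 it was 0.37. Without MFI8 replicate 2 the MFI8 value was 0.028. The transcript of Polrmt used for the offsets held 60.5% GC, against 40.9% to 53.2% for the other 9 genes, and with GC and length offsets the values of Polrmt were 0.073 with MASM7 and 0.016 with MFI8.

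Tfb1m was at 8.37 and 8.94 CPM with vehicle, 9.16 and 8.25 CPM with MASM7, and 9.19 and 9.59 CPM with MFI8. Both MFI8 libraries lay above both vehicle libraries, while the MASM7 libraries lay on either side of them. The log2 fold change was 0.12 with MFI8 (interval -0.15 to 0.39, adjusted p = 0.783) and 0.0067 with MASM7 (interval -0.26 to 0.28, adjusted p = 0.988). Without vehicle replicate 1 the MFI8 value was 0.074.

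**Figure D2:**
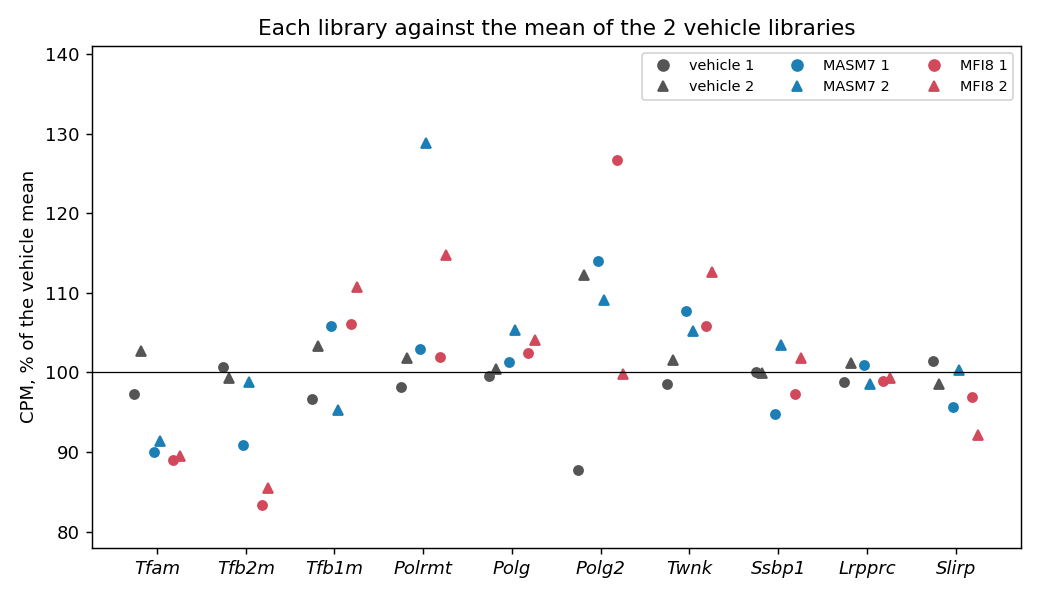
CPM of the 10 genes in each library as a percentage of the mean of the 2 vehicle libraries. All 4 treated libraries of Tfam lie between 88.9% and 91.4%, both MFI8 libraries of Tfb2m at 83.3% and 85.5%, and 1 MASM7 library of Polrmt at 129%, while all 6 libraries of Lrpprc lie between 98.5% and 101%.

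Among the replication genes, none was past an unadjusted p of 0.05 with either compound, and Twnk came closest. The helicase gene Twnk was at 79.4 and 81.9 CPM with vehicle, 86.9 and 84.8 CPM with MASM7, and 85.4 and 90.8 CPM with MFI8. All 4 treated libraries lay above both vehicle libraries. Its log2 fold change was 0.13 with MFI8 (SE 0.058, interval -0.0012 to 0.26, adjusted p = 0.511), which is 9.27% higher, and 0.090 with MASM7 (interval -0.038 to 0.22, adjusted p = 0.590). Without MFI8 replicate 2 the MFI8 value was 0.082. With GC and length offsets the values were 0.081 with MFI8 and 0.030 with MASM7.

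Polg, the catalytic subunit of the polymerase, was at 95.4 and 96.2 CPM with vehicle, 97.1 and 100.8 CPM with MASM7, and 98.2 and 99.7 CPM with MFI8. The treated libraries again lay above vehicle, but the log2 fold change was only 0.047 with each compound (interval -0.072 to 0.17 with MFI8 and -0.072 to 0.17 with MASM7), and with GC and length offsets the MFI8 value turned to -0.033. Polg2, the accessory subunit, was at 5.13 and 6.56 CPM with vehicle, 6.66 and 6.38 CPM with MASM7, and 7.40 and 5.83 CPM with MFI8. Replicates of Polg2 differed by 0.35 on the log2 scale with vehicle, in one direction, and by 0.34 with MFI8 in the other, more than its fold changes of 0.15 with MASM7 and 0.17 with MFI8. The interval of Polg2 with MFI8 ran from -0.22 to 0.56, which was the widest of the 10 genes. Ssbp1, which coats single-stranded DNA during replication, stayed between 59.6 and 65.1 CPM in all libraries, and its log2 fold change was -0.0054 with MFI8 (interval -0.15 to 0.14) and -0.013 with MASM7 (interval -0.16 to 0.13).

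Of the genes of RNA stability, Lrpprc had the smallest spread between group means among the 10 genes. It was at 260.0 and 266.1 CPM with vehicle, 265.4 and 259.2 CPM with MASM7, and 260.4 and 261.2 CPM with MFI8, and the groups overlapped. Its log2 fold change was -0.013 with MFI8 (interval -0.12 to 0.096) and -0.0040 with MASM7 (interval -0.11 to 0.10), which is -8.05% to 6.87% with MFI8 and -7.49% to 7.50% with MASM7. The group means of Lrpprc and Ssbp1 differed by at most 0.012 and 0.014 on the log2 CPM scale, at the 0.54th and 0.66th percentiles of all genes tested. Slirp, whose product forms a complex with LRPPRC, was at 44.6 and 43.4 CPM with vehicle, 42.1 and 44.1 CPM with MASM7, and 42.7 and 40.6 CPM with MFI8. The MFI8 libraries lay below vehicle, with a log2 fold change of -0.082 (interval -0.23 to 0.068, adjusted p = 0.713), and the MASM7 value was -0.029 (interval -0.18 to 0.12). Without MFI8 replicate 2 the MFI8 value was -0.044. Slirp is uncertain as a gene of its own here, since 93.9% of its merged exon bases also belong to exons of Snw1 on the opposite strand in vM21, and the strand setting of the counting is not stated. Smaller opposite-strand overlaps touched Twnk (12.6% of its exon bases, with Mrpl43), Polg (8.57%, with Fanci), Tfb1m (3.94%, with Tiam2) and Polg2 (3.03%, with Milr1).

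**Figure D3:**
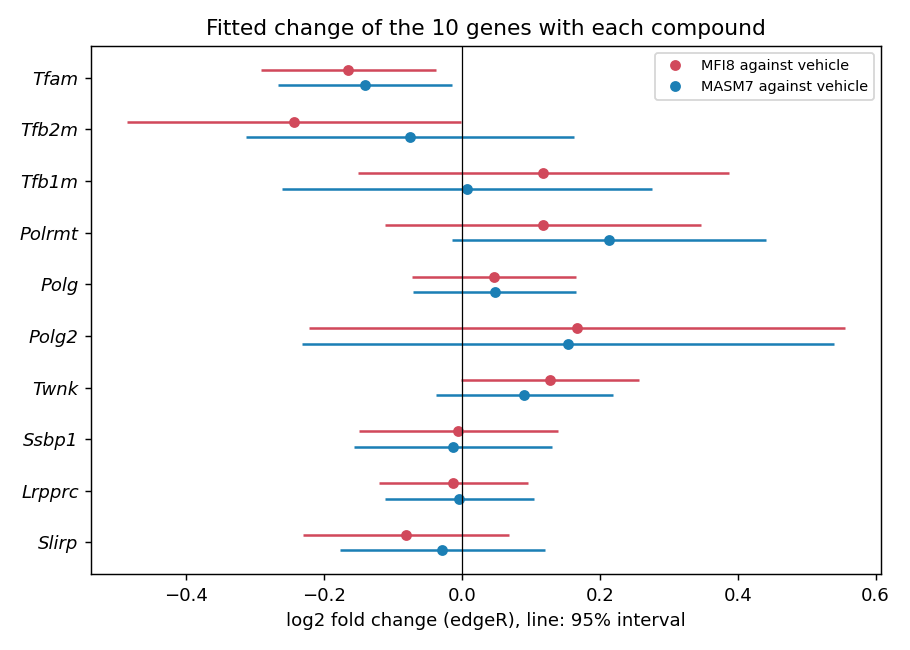
Log2 fold changes of the 10 genes from edgeR with 95% intervals, MFI8 against vehicle in red and MASM7 against vehicle in blue. The intervals of Tfam (both compounds) and of Tfb2m with MFI8 end below 0, and all other intervals include 0.

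Counted together, the 10 genes showed no common direction. With MFI8, 5 of the 10 log2 fold changes were positive and 5 were negative, and their median was 0.021, against 0.0027 over all genes tested. Both MFI8 libraries lay above both vehicle libraries for 4 genes (Polrmt, Tfb1m, Polg and Twnk), where 20.9% of all genes did so, and below for 3 genes (Tfam, Tfb2m and Slirp), where 19.3% did so. These 7 of 10 genes stand beside 40.2% of all genes with libraries that did not overlap. With MASM7 the split was again 5 and 5, with a median of 0.0013 against 0.00067 over all genes. Its libraries lay above vehicle for 3 genes (Polrmt, Polg and Twnk, background 21.2%) and below for 2 (Tfam and Tfb2m, background 21.6%), or 5 of 10 against 42.8% in either direction.

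MFI8 and MASM7 were also set against each other in the same fit, with the difference in concentration noted above. At an adjusted p under 0.05, 0 of the 10 genes were called, and 0% of all genes. At an unadjusted p under 0.05 again 0 of the 10 genes passed, where 7.18% of all genes did (4.23% higher and 2.95% lower), and the smallest p was 0.148. That p belonged to Tfb2m, whose log2 difference was -0.17 (interval -0.41 to 0.071). Tfb1m was higher in both MFI8 libraries than in both MASM7 libraries, by 0.11 (interval -0.15 to 0.37). That difference was 0.037 without MASM7 replicate 2 and 0.19 without MASM7 replicate 1. Tfam was also apart, at -0.024 (interval -0.15 to 0.10). Those 3 genes were the only ones whose libraries did not overlap between the compounds, and the background was 19.6% in each direction and 39.2% in both. The remaining differences ran from -0.095 (Polrmt, interval -0.32 to 0.13) to 0.038 (Twnk, interval -0.090 to 0.17).

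Ratios between genes that act together do not depend on library depth, but they can still depend on GC content and length. In MFI8 libraries 3 of the 5 ratios examined did not overlap with vehicle. The share of 40.2% given above is for single genes, and no matching share was computed for ratios. With MFI8, both genes of each of those 3 ratios also lay apart from vehicle singly. The ratios are therefore not independent of the single-gene results. The ratio of Tfam to Polrmt in TPM was 1.71 and 1.74 in the vehicle libraries, 1.51 and 1.22 in the MASM7 libraries, and 1.501 and 1.342 in the MFI8 libraries. Vehicle was higher than all treated libraries, and the ratio of the group means was 0.792 with MASM7 and 0.826 with MFI8. On the log2 scale the MASM7 value was -0.34, and it was -0.19 without MASM7 replicate 2. The ratios were not computed with GC and length offsets. With those offsets the separate MASM7 values were -0.085 for Tfam and 0.073 for Polrmt, and the MFI8 values were -0.14 and 0.016. The transcripts used for the offsets held 44.9% GC for Tfam and 60.5% for Polrmt. The ratio of Tfb2m to its paralog Tfb1m was 1.77 and 1.64 for vehicle, 1.46 and 1.76 for MASM7, and 1.34 and 1.31 for MFI8, so both MFI8 libraries stood below vehicle, at 0.777 of its mean, and 1 of the 2 MASM7 libraries did so as well. Twnk to Polg was 2.23 and 2.28 for vehicle, 2.40 and 2.25 for MASM7, and 2.33 and 2.44 for MFI8, with MFI8 above vehicle and MASM7 overlapping it. The ratios of Polg to Polg2 and of Lrpprc to Slirp overlapped between vehicle and each compound. These ratios are given as a description, and no test of them was made.

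**Figure D4:**
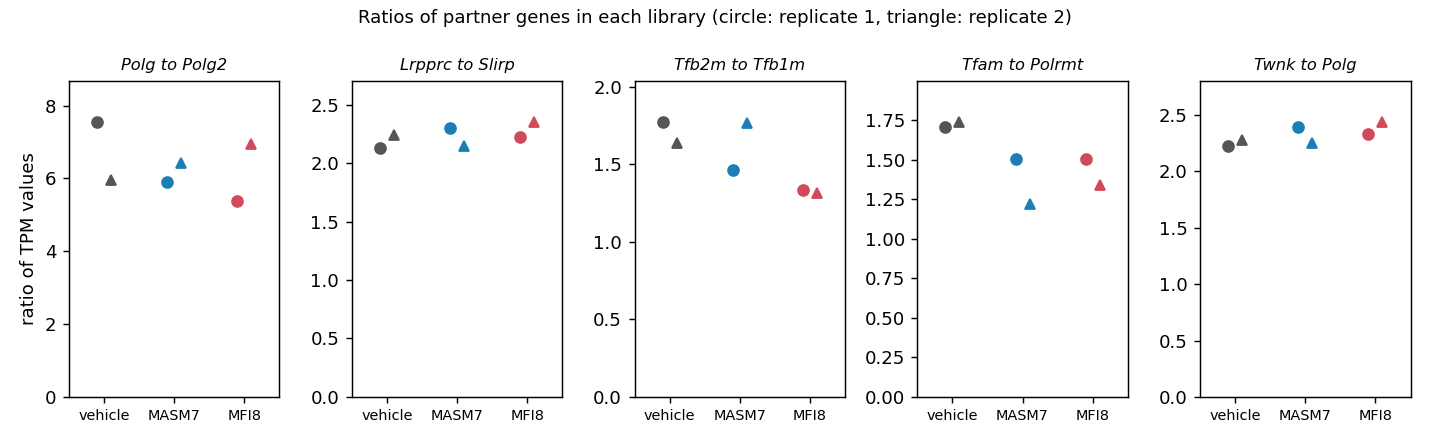
Ratios of TPM values between partner genes in each library, with the y axes starting at 0. Tfam to Polrmt is 1.71 and 1.74 in the vehicle libraries and between 1.22 and 1.51 in the treated ones, and Tfb2m to Tfb1m is 1.34 and 1.31 in the MFI8 libraries.

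The wider machinery around these genes was described through 3 lists: 15 genes of mtDNA maintenance, 7 further factors acting in mtDNA transcription and 19 genes of mitochondrial RNA processing and decay. All 41 genes were tested, and 0 were called at an adjusted p under 0.05 with either compound in the fit without a block. Calls differed with the replicate number as a block and are given with the processing alternatives. At an unadjusted p under 0.05, 2 of the 41 genes passed with MFI8 (1 higher, 1 lower), where 9.86% of all genes did, and 6 with MASM7 (5 higher, 1 lower), where 10.2% did. With MFI8, 12 of the 15 maintenance genes had positive log2 fold changes (median 0.061), against 50.7% of all genes, and 1 of them passed the unadjusted threshold. With MASM7 it was 9 of the 15, and of the 19 RNA processing genes 9 were positive with MFI8 and 11 with MASM7. In MFI8 libraries set against MASM7 libraries, 15 of the 19 RNA processing genes were negative and 4 positive (median -0.057), where 49.5% of all genes were positive, while the maintenance genes were divided into 8 positive and 7 negative. None of the 19 RNA processing genes passed the unadjusted threshold (0 of 19), where 7.18% of all genes did.

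Lonp1, the matrix protease that degrades TFAM, had the smallest p of the 41 genes with MFI8. Its level was 146.8 and 143.6 CPM with vehicle, 160.1 and 162.0 CPM with MASM7, and 165.5 and 164.6 CPM with MFI8. All treated libraries lay above vehicle, with log2 fold changes of 0.18 for MFI8 (adjusted p = 0.349) and 0.15 for MASM7 (adjusted p = 0.473). Fastkd5, which acts in processing of mitochondrial transcripts that lack flanking tRNAs, had a log2 fold change of -0.20 with MFI8 (adjusted p = 0.499). With MASM7 the value of Fastkd5 was -0.082. Mgme1, an exonuclease of mtDNA replication, had 0.16 with MFI8 (adjusted p = 0.517) and 0.0021 with MASM7. Tbrg4, also known as FASTKD4 and acting on mitochondrial mRNA stability, had 0.20 with MASM7 (adjusted p = 0.466) and 0.12 with MFI8. Elac2, the endonuclease that cuts the 3′ ends of tRNAs, had 0.19 with MASM7 (adjusted p = 0.466) and 0.11 with MFI8.

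Of the nuclear regulators of the 10 genes (8 listed, all tested), 0 were called at an adjusted p under 0.05 in the fit without a block. This held for either compound, as over all genes (0%), and calls with a block are given further below. Gabpa, the DNA-binding subunit of GABP, had log2 fold changes of -0.091 with MFI8 and -0.12 with MASM7 (adjusted p = 0.650 and adjusted p = 0.528). Nrf1, the nuclear respiratory factor, had 0.014 and 0.077. Of the PGC-1 family of coactivators, Ppargc1a had -0.24 and 0.099, Ppargc1b had 0.23 and -0.14, and Pprc1 had 0.10 and 0.16 at 261 to 316 CPM. The nuclear receptor gene Esrra had 0.22 and 0.15, and without vehicle replicate 2 the MASM7 value was -0.013. Yy1, named here after its values were seen, was the only one of the 8 past an unadjusted p of 0.05 with MFI8, at -0.13 (adjusted p = 0.464), and had -0.089 with MASM7. With MASM7 the only one was Pprc1 (adjusted p = 0.480), which was higher. Pprc1 was at 297.6 and 261.0 CPM with vehicle and 315.7 and 306.8 CPM with MASM7, so vehicle replicate 2 stood apart from vehicle replicate 1. The count of 1 of 8 genes past the unadjusted threshold with each compound is close to the 9.86% and 10.2% of all genes that passed.

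The mRNAs that this machinery makes from mitochondrial DNA were also in the table, 13 in all, although 6 of them had only 0 to 5 counts in each library and were not tested. Those counts stand beside 109351 to 159839 counts of mt-Co1 from the same genome. How reads were assigned to the 6 was not examined, so their counts cannot be read as low levels. Of the 7 tested, 6 had log2 fold changes of -0.43 to -0.25 with MFI8. At an adjusted p under 0.05, 0 of the 7 were called, where 0% of all genes were called. Their smallest adjusted p of 0.0924 (edgeR) was also the smallest over all 14290 genes. These mRNAs were not among the genes followed under the alternative settings given below. At an unadjusted p under 0.05, 6 of the 7 passed with MFI8 and 5 of the 7 with MASM7, all lower, where 9.86% and 10.2% of all genes did. The same 6 had -0.17 to -0.10 with MASM7. The seventh, mt-Nd6, which is encoded on the other strand of the mitochondrial genome, had 0.18 with MFI8 and 0.14 with MASM7. A relation between the level of the 10 genes and that of these mRNAs was not tested. The plot of fold changes by list sets them side by side.

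**Figure D5:**
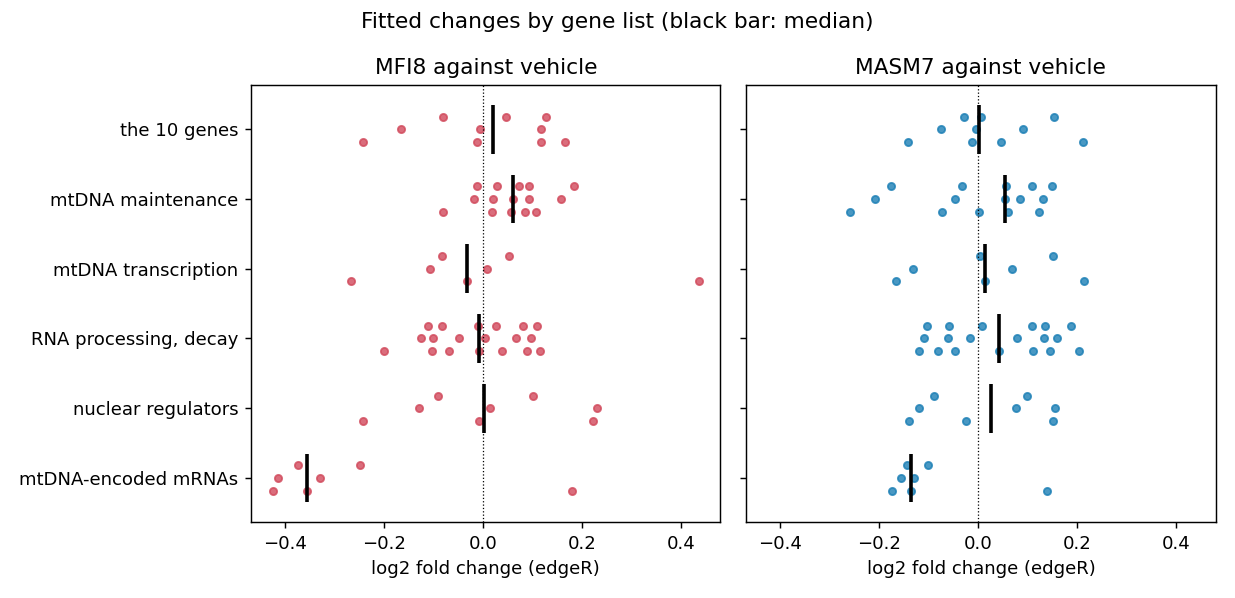
Log2 fold changes from edgeR by gene list, for MFI8 against vehicle (left) and MASM7 against vehicle (right), with 1 point per tested gene and a black bar at the list median. The medians of the 10 genes are 0.021 and 0.0013, and that of the 7 tested mtDNA-encoded mRNAs is -0.36 with MFI8 and -0.14 with MASM7.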

How the data were processed

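RNA-seq was analysed from 6 libraries of polyadenylated RNA of WT MEFs. According to the submitters' processing notes and the study's methods, the authors trimmed reads with Trimmomatic, aligned them to mm10/GRCm38 with STAR and deposited raw counts per gene from featureCounts. The TPM values were also deposited by the authors, and their lengths lay within 5% of the merged exons of GENCODE vM21 for 99.2% of 10313 genes. The annotation release and strand setting are not given in the sources used here. The authors' normalized counts were not used. No column belonged to another sample.

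A model of the raw counts of the 6 libraries was made in edgeR 4.0.16 (R 4.3.3) with TMM factors (0.991 to 1.01), filterByExpr, 1 coefficient per group and no block, and was tested by the quasi-likelihood F test, Benjamini-Hochberg adjusted over 14290 genes at 0.05. Standard errors came from the log2 fold change and its F statistic, and 95% intervals used the t distribution. CPM used TMM factors, and log2 CPM added a prior count of 2. Total counts of 22791792 to 30677751 set the counting error. On simulated counts with 200 changed genes, MFI8 against vehicle recovered 14% at a log2 change of 0.3 (14065 genes) and 82.5% at 1 (14054 genes). The simulation gave every gene the same spread (common dispersion 0.0039) and no replicate effect, so these shares may not hold for the real counts.

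Alternatives were DESeq2 1.42.0, its size factors, library size alone, other count filters, only the groups compared, the replicate number as a block, limma 3.58.1 on log2(TPM + 1) and log2(TPM + 0.1), GC and length offsets, each library left out, and, chosen after seeing the data, CPM per kb of the principal transcript. Named genes were the 10 genes, the 3 genes with the smallest p of the pooled pathway lists per compound, 6 regulators, and the 3 genes nearest to the member whose group means differed most. Yy1 and mt-Nd6 were named after their values were seen. The genes and lists were chosen with earlier results of these data known.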

Additional observations from a re-analysis of the deposited data

How the results depend on the processing

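Under all 17 alternatives 0 of the 10 genes were called in each of the 3 comparisons. The log2 fold change of Tfam kept its sign in 17 of 17 alternatives with MFI8 (-0.20 to -0.12, adjusted p 0.0658 to 0.839) and with MASM7 (-0.18 to -0.085), and those of Tfb2m and Twnk with MFI8 and of Polrmt with MASM7 did so too. Medians of all genes shifted by less than 0.1 under every scaling.

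The calls over all genes depended on the model. For MFI8 against vehicle, MASM7 against vehicle and MFI8 against MASM7, genes called numbered 256, 127 and 168 with a filter of 1 count in any library, 48, 2 and 29 with DESeq2, 0, 1 and 2 with only the groups compared, and 0 to 26, 0 to 2 and 0 to 24 with 1 library left out. With the replicate number as a block they numbered 720, 554 and 439, and with the block plus GC and length offsets 595, 153 and 672. Replicate numbers 1 and 2 recur in each group, but nothing in the labels ties equal numbers to a shared culture, day or batch. The replicate differences correlated across 14290 genes at r = 0.188 (vehicle and MASM7), 0.152 (vehicle and MFI8) and 0.165 (MASM7 and MFI8). Over the 7145 genes of higher level, r was 0.508, 0.621 and 0.538, and genes are not independent replicates. With the block, Lonp1 (MFI8, 0.18, adjusted p = 0.0144), Tbrg4 (MASM7, 0.21, adjusted p = 0.0133), Elac2 (MASM7, 0.19, adjusted p = 0.0299) and Pprc1 (MASM7, 0.16, adjusted p = 0.0437) passed the threshold, and the smallest adjusted p of the 10 genes was 0.0548 (Polrmt, MASM7). The cause was not tested.

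The median of the 10 genes for MASM7 against vehicle was 0.034 with GC and length offsets and 0.035 with the block added, and -0.010 to 0.034 with 1 library left out. For MFI8 against MASM7 it was 0.038 and 0.039 with limma on log2(TPM + 1) and log2(TPM + 0.1), and -0.035 and -0.036 with GC and length offsets without and with the block.

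Values near 0 changed sign. For MFI8 against vehicle, Ssbp1 became 0.0052 with library size alone, 0.0022 with the filter of 1 count, 0.019 and 0.020 with limma, and 0.052 and 0.051 with GC and length offsets without and with the block. In the same comparison Lrpprc became 0.014 under both limma settings, and Polg became -0.033 and -0.034 with the offsets. For MASM7 against vehicle, Tfb1m became -0.0044 with library size alone and -0.0087 and -0.0097 with limma, and Mgme1 became -0.0087 with library size alone, -0.014 and -0.015 with limma, and -0.00087 and -0.00058 with the offsets. Ssbp1 became 0.0071 and Lrpprc 0.016 with the filter of 1 count. With the offsets, without and with the block, Tfb2m became 0.00023 and 0.0014, Ssbp1 0.085 and 0.085, Lrpprc 0.027 and 0.026, and Slirp 0.038 and 0.040. For MFI8 against MASM7, Polg became 0.021 with library size alone, 0.0026 with only the groups compared, and 0.042 and 0.043 with limma. Lrpprc became 0.013 with library size alone and 0.034 and 0.035 with limma, and Tfam became 0.019 under both limma settings. Polg2 became -0.00021 with the filter of 1 count and -0.0034 with the offsets and block, and Ssbp1 became -0.0048 with the filter and -0.033 and -0.034 with the offsets.

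With 1 library left out, values for MFI8 against vehicle ranged from -0.0042 to 0.36 for Polg2, -0.039 to 0.028 for Ssbp1, -0.027 to 0.0048 for Lrpprc and -0.031 to 0.063 for Nrf1. For MASM7 against vehicle they ranged from -0.070 to 0.081 for Tfb1m, -0.0091 to 0.35 for Polg2, -0.076 to 0.049 for Ssbp1, -0.021 to 0.014 for Lrpprc, -0.063 to 0.0047 for Slirp, -0.029 to 0.033 for Mgme1, -0.0064 to 0.22 for Ppargc1a, -0.31 to 0.013 for Ppargc1b and -0.013 to 0.33 for Esrra. For MFI8 against MASM7 they ranged from -0.25 to 0.076 for Polrmt, -0.027 to 0.028 for Polg, -0.16 to 0.18 for Polg2, -0.0084 to 0.083 for Twnk, -0.053 to 0.072 for Ssbp1 and -0.025 to 0.0091 for Lrpprc. With MASM7 the log2 ratio of Tfam to Polrmt, -0.34 against vehicle, ranged from -0.50 to -0.19, and that of Tfb2m to Tfb1m, -0.084, from -0.22 to 0.051. A group left with 1 library was assumed to vary like the other groups.

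In counts simulated at this depth with 2 libraries per group and fitted without a block, 14% of genes changed by 0.3 on the log2 scale were recovered. Every simulated gene had the same dispersion and no replicate effect, so this share may not hold for the real counts. The share for the smaller differences of the 10 genes, or with a block, was not simulated.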
